A study of Danio rerio with 7 samples.

Results

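The probes described here read lower in tbx5-MO embryos than in wild-type (WT) embryos on every array of 24 and 30 hours post-fertilization (hpf). Members were the probes of the value table that were at least 1.5-fold lower on both 24 hpf arrays and both 30 hpf arrays. Each of these 4 values also had to be found at most 10 times on its array, because many probes of this table carry a number that other probes of the same array repeat exactly. The names came from the probe lists deposited for 24 and 30 hpf, which hold only probes at least 1.5-fold lower at that stage. Symbols of parvalbumins, troponins, myosins, skeletal and cardiac actins, muscle creatine kinases, crystallins, globins and ribosomal proteins were left out. Of the 43663 probes, 346 (0.792%) were low on all 4 arrays, and 166 of them also met the repeat limit, which is 2.22% of the 7480 probes that did. After 21 were left out by symbol, 145 probes remained, 111 with a gene symbol (104 different symbols) and 34 without. The values at 24 and 30 hpf chose the members, so they are given as a description with no test, and only the values at 48 hpf, which the choice did not use, were tested.

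Whole AB strain zebrafish embryos were studied. Those of the morphant group had received tbx5-MO, an antisense morpholino made against the translation start of the T-box transcription factor tbx5, at the 1-cell stage, and those of the control group were WT embryos of the same strain and stage. RNA came from pools of 50 embryos, morphant RNA was labelled with Cy5 and WT RNA with Cy3, and both were put on 1 array, giving 2 arrays for 24 hpf, 2 for 30 hpf and 3 for 48 hpf. A log2 ratio above 0 is read here as more RNA in the tbx5-MO embryos. The dyes were not swapped, so an effect of the dye and an effect of the morpholino cannot be told apart, and a ratio on whole embryos cannot tell fewer cells of a type from less RNA per cell. A morpholino lowers the protein and leaves the gene intact, and no mismatched morpholino was on these arrays. Whether replicate arrays held RNA of separate pools is not stated in the labels, so p-values measure the spread between arrays, which may be technical.

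Tbx5 is known for its part in the formation of the heart and of the forelimb, the pectoral fin in fish. Between the first and the second day of development, a zebrafish embryo lays down trunk muscle, neurons of the brain and spinal cord, a layered epidermis and circulating red blood cells. The members include genes of each of these tissues, beside genes that most cells use.

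Arrays of 1 stage resembled each other little over the whole table. Correlations between arrays of the same stage lay between 0.07 and 0.14 over all probes and between 0.16 and 0.47 over the 7480 probes that met the repeat limit at 24 and 30 hpf. Between stages, the correlations lay between -0.03 and 0.07 over all probes and between -0.15 and 0.15 over the 7480. Over the 7480, array 1 of 30 hpf correlated with arrays 1, 2 and 3 of 48 hpf at -0.12, -0.15 and -0.15. For array 2 of 30 hpf, these correlations were 0.05, -0.02 and -0.05. Array names fall into 2 series by their first part. One holds 24 hpf array 1 and both 30 hpf arrays, and the other holds 24 hpf array 2 and all 3 arrays of 48 hpf, so the stages of 30 and 48 hpf and the array series cannot be told apart. The array name taken here for 24 hpf array 2 carries the number 3, which no label of that stage has, and it was assigned as the array left over. With that assignment, the values of 3328 of the 3372 probes in the 24 hpf list matched 1 row of the value table alone.

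Among the members, the median log2 ratio was -1.04 and -1.62 on the 24 hpf arrays and -1.07 and -1.32 on the 30 hpf arrays. On the 48 hpf arrays the medians were -0.05, 0.16 and 0.44. The mean over the 4 early arrays ranged from -3.78 to -0.75 with a median of -1.36, which is 2.56-fold lower in the morphants. A decrease of at least 2-fold on all 4 early arrays was found for 31 probes. Array 2 of 24 hpf gave the lowest value for 69 of the 145 members, and 11 values of -4 or lower came from it, against 2 from the other 3 early arrays together. That array also had the lowest early median over the probes within the repeat limit. These medians were -0.21 and -0.43 at 24 hpf and -0.02 and -0.04 at 30 hpf.

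**Figure D1:**
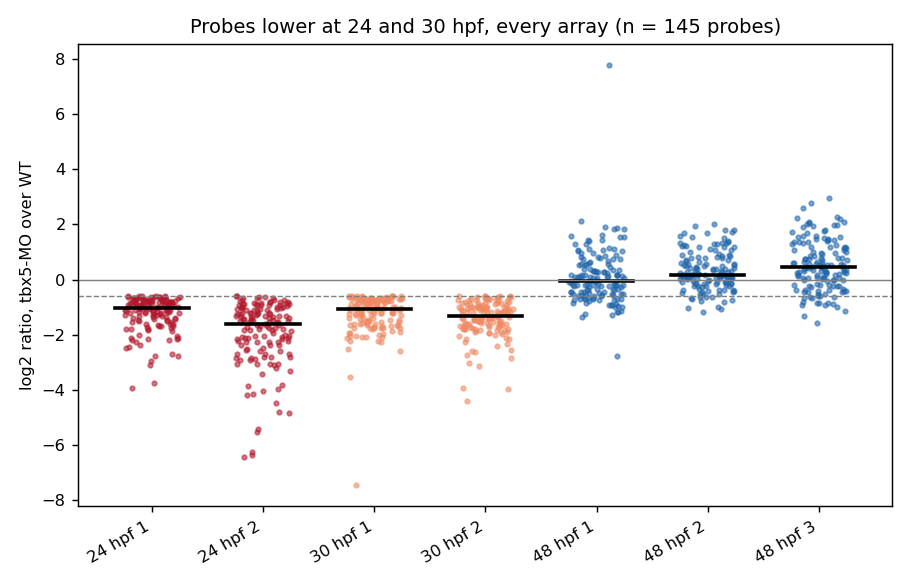
Log2 ratio of tbx5-MO over WT (vertical axis) for each of the 145 member probes (points) on each of the 7 arrays (horizontal axis), with black bars at the array medians and a dashed line at a 1.5-fold decrease. Points at 24 and 30 hpf lie below the dashed line because the choice of members put them there, and the medians at 48 hpf are -0.05, 0.16 and 0.44.

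Members closest to the limit were plg, with a highest early value of -0.588, zgc:56596, with -0.589, and mdkb, with -0.592. Just outside it lay bcl2l10, a member of the Bcl2 family, with -0.581, a probe without a symbol with -0.578, and zgc:77488 with -0.577.

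At 48 hpf the members were spread to both sides of 0, more of them above. All 3 arrays were above 0 for 63 members (43.4%), against 16.8% of all probes and 17.1% of the probes within the repeat limit. For 27 members (18.6%) all 3 arrays were below 0, against 18.1% of all probes and 37.1% of the probes within the repeat limit, and 55 members had values on both sides. The median of the members was 0.14 (quartiles -0.21 and 0.75), beside -0.17 (quartiles -0.50 and 0.17) for the probes within the repeat limit and 0.00 for all probes. An increase of at least 1.5-fold on all 3 arrays was found for 27 members (18.6%, against 2.70% of the probes within the repeat limit and 1.97% of all probes), and a decrease of that size for 3 members (2.07%, against 6.74% and 2.09%). Arrays 1, 2 and 3 of 48 hpf had medians of -0.20, -0.14 and -0.15 over the probes within the repeat limit.

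The set of probes that were lower on both 24 hpf arrays but not on both 30 hpf arrays, 1046 within the repeat limit, had a median of -0.18 at 48 hpf, and 15.0% of them were above 0 on all 3 arrays. For the 516 probes lower on both 30 hpf arrays but not on both 24 hpf arrays, the median was -0.16 and the share above 0 was 21.7%. The 32 probes that were at least 1.5-fold higher on all 4 early arrays had a median of -0.08, and 9.38% were above 0 on all 3 arrays. These differences between sets were not tested.

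**Figure D2:**
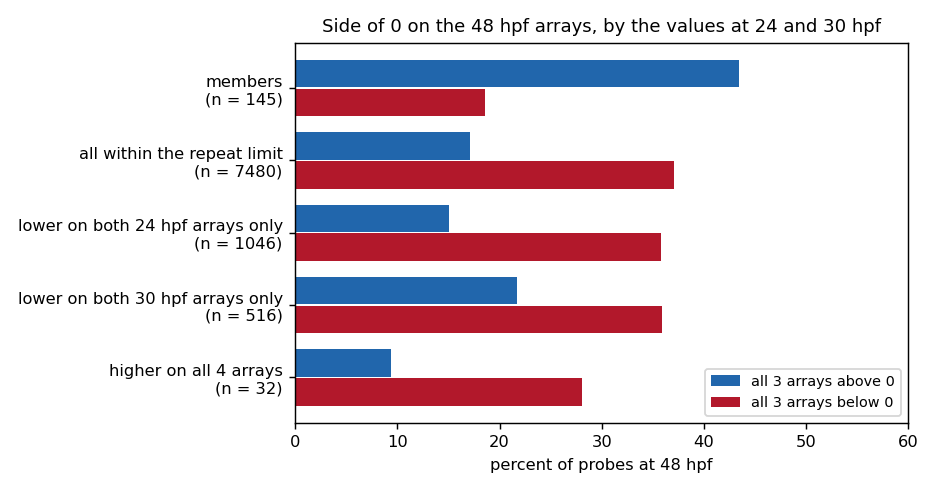
Percent of probes (horizontal axis) whose 3 values at 48 hpf were all above 0 (blue) or all below 0 (red), for the members, for all probes within the repeat limit and for 3 sets chosen by other patterns at 24 and 30 hpf within that limit. Blue is longer than red for the members, with 43.4% and 18.6%, and shorter than red in the other sets.

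In the limma test over all 43663 probes, none of the 145 members passed an adjusted p of 0.05 at 48 hpf in either direction, where the background was 0.0% of all probes in each direction. The lowest adjusted p of a member was 0.529. In this and the other fits of all 7 arrays, the standard error used the spread of the early arrays too. Values that chose the members thus entered these p-values. An unadjusted p under 0.05 was found for 32 members above 0 and 5 below 0, against 2.65% and 3.19% of all probes. The same test was also run over the 7480 probes within the repeat limit with the 48 hpf arrays alone, called the repeat-limited fit here. There 27 members passed with a higher level in the morphants (18.6%, against a background of 2.42%) and 3 with a lower level (2.07%, against 5.82%). Of the 516 probes lower on both 30 hpf arrays but not on both 24 hpf arrays, 9.69% passed higher and 6.01% lower. For the 1046 probes lower on both 24 hpf arrays but not on both 30 hpf arrays, the shares were 1.53% and 4.78%. These differences between sets were not tested. The calls of the members rest on all 3 arrays of 48 hpf. Without array 1, 2 or 3 the number of higher members was 0, 14 or 4 and the number of lower members 0, 1 or 0, beside backgrounds of 0.0%, 0.829% and 0.361% higher and 0.0%, 1.27% and 0.468% lower. With all 7 arrays in the fit over the 7480 probes, 8 members were higher (background 0.307%) and 0 lower (background 0.374%). At an unadjusted p under 0.05, 37 members were above 0 and 10 below 0 in that fit, against 4.39% and 13.7% of the 7480 probes. With the repeat limit on all 7 arrays, which leaves 6950 probes and 136 members, 10 members were higher and 0 lower (backgrounds 0.576% and 0.806%) in a fit of 7 arrays, and 32 higher and 7 lower (backgrounds 3.65% and 9.88%) in a fit of the 48 hpf arrays alone. The main test was that over all probes with all 7 arrays, and no named gene passed in it. Adjusted p-values below, and the word passed, refer to the repeat-limited fit, an alternative that gave more calls.

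**Figure D3:**
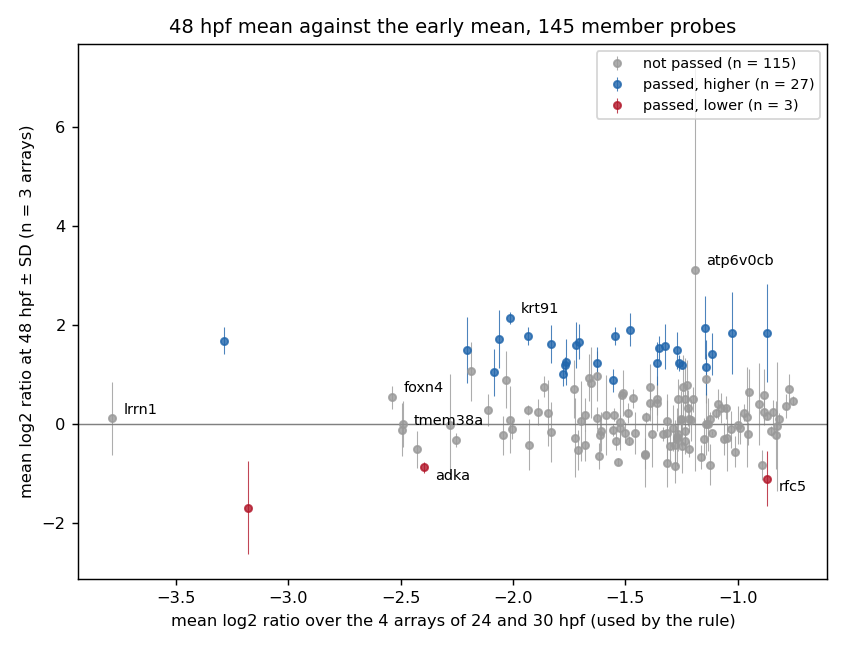
Mean log2 ratio over the 4 early arrays, which chose the members (horizontal axis), against the mean at 48 hpf with its SD over 3 arrays (vertical axis), 1 point per member probe. Blue and red mark the 27 higher and 3 lower members that passed in the repeat-limited fit, and the long bar of atp6v0cb comes from 1 array with a value of 7.77.

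Keratin genes were among the members furthest above 0 at 48 hpf. Keratins form the intermediate filaments of skin cells, and 2 type I keratin genes were members, krt91 (deposited as zgc:92533) and krt1-19e (deposited as si:dkeyp-113d7.4). In the deposited coordinates, for which the sources used here give no genome build, the krt91 probe lies at chr19:2843461-2843617 and the krt1-19e probe at chr19:2804110-2804169. Krt91 had log2 ratios of -1.73 and -2.38 at 24 hpf, -1.80 and -2.16 at 30 hpf, then 2.11, 2.03 and 2.27 at 48 hpf. The mean at 48 hpf, 2.14 ± 0.12 (SD, n = 3 arrays, as for each mean at 48 hpf below), is 4.40-fold higher in the morphants, with an adjusted p of 0.0102 (0.529 over all probes). Krt1-19e had -0.92 and -3.83, then -1.76 and -1.73, and at 48 hpf 1.84, 1.07 and 2.23, with a mean of 1.71 ± 0.59 and an adjusted p of 0.0207. In the list of skin and hatching gland genes, these 2 were the only members, and of its 15 probes named through the lists of 24 or 30 hpf and within the repeat limit, members included here and in the lists below, 4 passed higher and 0 lower at 48 hpf, with a median of 0.04. Here and below, probes counted for a function list were thus all lower at 24 or 30 hpf, and are not every probe of that function on the array. Aqp3a, a water and glycerol channel of epithelia, was a member without that pattern, with 48 hpf values of -0.22, -0.37 and 0.05.

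The list of neuron and synapse genes held the most members by count, 9 probes of 9 symbols. Their median at 48 hpf was 0.49, with 5 above 0 on all 3 arrays, 0 below 0 on all 3, 2 passed higher and 0 lower. Of the 35 probes of that list within the repeat limit, 13 were above 0 on all 3 arrays and 7 below, with a median of 0.16. Members were 9 of the 35, against 6 of 19 in the list of sarcomere genes and 3 of 7 in that of excitation and calcium release. By share, other lists thus held more. Of the 35, 4 passed higher and 2 lower, against 6.24% higher and 5.21% lower among the 1362 probes within the repeat limit that had a symbol from the lists of 24 or 30 hpf. Of these 1362 probes, 111 were members. Nrxn1a encodes a neurexin, an adhesion protein of the presynaptic membrane. Its values were -1.02 and -0.87 at 24 hpf, -2.25 and -2.05 at 30 hpf, then 1.63, 1.73 and 1.98 at 48 hpf, a mean of 1.78 ± 0.18 that is 3.43-fold higher, with an adjusted p of 0.0102. The second gene of the list to pass was tuba1c (deposited as MGC171407), an alpha-tubulin, with 1.05, 1.33 and 1.32 at 48 hpf and an adjusted p of 0.0208.

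Gpm6aa, a membrane glycoprotein of neurons that stood outside the list, gave -1.83 and -1.35, then -1.21 and -1.01, and 1.30, 1.79 and 1.51 at 48 hpf (mean 1.53 ± 0.25, adjusted p 0.0146). Stathmins, which bind free tubulin, were represented by 2 paralogs, whose difference was not tested. Stmn1b was at 0.83, 0.52 and 1.45 at 48 hpf, with an adjusted p of 0.058, and stmn1a was at -1.0, 0.30 and -0.18. Elavl4, an RNA-binding protein of young neurons, had -0.64 and -1.38 at 24 hpf, -0.63 and -3.96 at 30 hpf, then 0.89, 0.09 and 1.53 at 48 hpf, above 0 on each but with an adjusted p of 0.112. Plp1a, a myelin protein, and sncb, a synuclein of synapses that the list did not hold, did not pass, with means at 48 hpf of -0.28 ± 0.80 and 0.64 ± 0.48.

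Lrrn1, a neuronal leucine-rich repeat membrane protein, was the only gene with 3 member probes. They lie within chr5:53474703-53475991 in the deposited coordinates. The lowest gave -1.18 and -4.79 at 24 hpf, -7.45 and -1.71 at 30 hpf, then -0.75, 0.48 and 0.59 at 48 hpf. Another gave -0.81 and -5.40, then -1.56 and -1.95, and -0.92, -0.18 and -0.44, and the last gave -1.44 and -1.84, then -0.66 and -1.32, and -0.89, 0.39 and -0.04. The depth of the decrease thus differed by probe and array, and its first place by mean, -3.78, rests on 2 of 4 values. None of the 3 probes passed at 48 hpf, and array 1 was the lowest of the 48 hpf arrays for each.

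The members included transcription factors of the neural tube. Foxn4, a forkhead factor of retinal and spinal progenitors, gave -2.03 and -1.62 at 24 hpf and -2.60 and -3.91 at 30 hpf, low on every array. At 48 hpf it was at 0.76, 0.29 and 0.57, with an adjusted p of 0.123. Her15.2 (deposited as hes5), a Hairy-related repressor of the Notch pathway, was low to a like extent on each early array, with -2.76, -2.07, -2.04 and -2.25, and -1.19, 0.83 and 0.28 at 48 hpf. Near-identical her15 copies may share its probe. The 2 sox11 genes, Sox factors of differentiating neurons, had 48 hpf means of 0.42 ± 0.37 for sox11a and 0.49 ± 0.85 for sox11b. In the list of transcription factors and chromatin, 7 members had a median of 0.42 at 48 hpf, and none passed, with 3 above 0 on all 3 arrays and 0 below. The 86 probes of this list within the repeat limit had a median of -0.23, with 13 above 0 on all 3 arrays, 30 below, 1 passed higher and 1 lower. The members of the list included the orphan nuclear receptors nr2f2 (-0.75, -0.73 and 0.16) and nr2f1b (-0.20, -0.65 and 1.27), mycla (deposited as mycl1a), of the Myc family, and the chromatin protein hmgb1b (deposited as zgc:165618), at 0.27, 1.28 and 0.80.

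**Figure D4:**
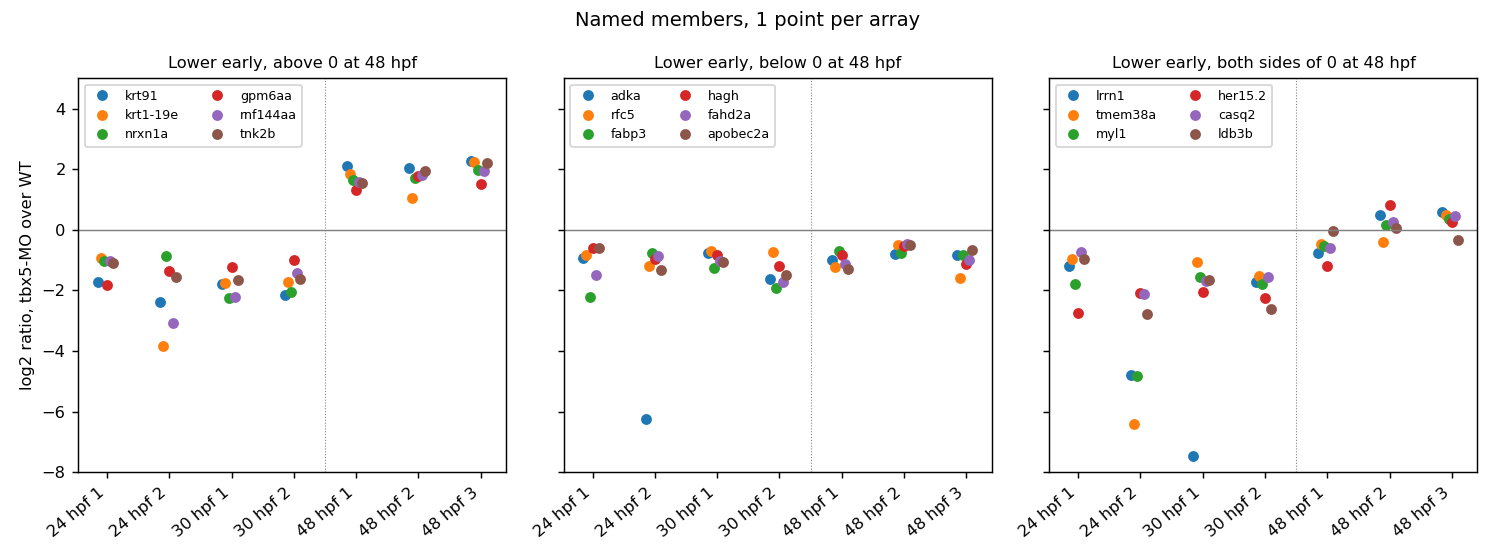
Log2 ratio of tbx5-MO over WT (vertical axis) on each of the 7 arrays (horizontal axis) for named members, 1 point per array, colours by gene and a dotted line between 30 and 48 hpf. The left panel holds members above 0 on all 3 arrays of 48 hpf, such as krt91 at 2.11, 2.03 and 2.27, the middle panel members below 0 on all 3, such as adka at -1.0, -0.81 and -0.84, and the right panel members with values on both sides, such as her15.2.

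Muscle genes were found among the members although the contractile gene families were left out by symbol. The list of sarcomere genes held 6 member probes of 5 symbols, with a 48 hpf median of 0.55, 4 above 0 on all 3 arrays and 2 passed higher. Of the 19 probes of the list within the repeat limit, 9 were above 0 on all 3 arrays and 5 below, and 5 passed higher and 1 lower, with a median of 0.51. Both passing member probes measure tpma, the tropomyosin of fast muscle thin filaments. Its probes gave -0.89, -3.87, -1.76 and -1.82, and -1.39, -0.67, -2.22 and -2.83, on the 4 early arrays. At 48 hpf they gave 0.54, 1.10 and 1.48 (mean 1.04 ± 0.48, adjusted p 0.0476) and 0.87, 1.27 and 0.85 (mean 1.00 ± 0.24, adjusted p 0.0355), above 0 on every array with both.

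The other members of the sarcomere list did not pass. Smyd1a, a muscle protein with SET and MYND domains, gave 0.32, 0.51 and 0.71, above 0 on every array with an adjusted p of 0.128. Ldb3b, a Z-disc protein, had -0.97 and -2.79 at 24 hpf, -1.65 and -2.61 at 30 hpf, then -0.05, 0.05 and -0.33. The myosin-binding proteins mybpc2b (deposited as zgc:110761) and mybphb (deposited as zgc:165344) had means of 0.08 ± 0.32 and 0.58 ± 0.53. Tmod4, a tropomodulin that caps thin filaments, was outside the list and slightly below 0 on all 3 arrays, at -0.18, -0.08 and -0.36. Cavin4b (deposited as murc), a muscle caveolar protein, was at -0.75, -0.11 and -0.46. The deposited symbol zgc:77231 is now myl1, a fast myosin light chain, which the choice by deposited symbol kept, and its 2 probes had means of -0.01 ± 0.47 and 0.18 ± 0.34.

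Calcium handling in muscle was represented by atp2a1, casq2 and tmem38a. Atp2a1 is the calcium pump of the sarcoplasmic reticulum of fast muscle, and its 2 probes gave 0.17, 0.40 and 0.94, and 0.51, 0.76 and 1.47, at 48 hpf (adjusted p 0.172 and 0.063). Casq2, a calcium-binding protein of the sarcoplasmic reticulum, had -0.61, 0.27 and 0.47. Tmem38a encodes a cation channel of the same membrane, and its early mean of -2.49 rests on 24 hpf array 2, with -6.42 beside -0.96, -1.07 and -1.52 on the others. At 48 hpf it gave -0.47, -0.39 and 0.50, on both sides of 0. In the list of excitation and calcium release genes, which held 3 member probes, none passed, and of its 7 probes within the repeat limit 1 passed higher and 0 lower, with a median of 0.58.

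Type I collagen, the main fibre protein of skin and bone, was represented by the genes col1a1a and col1a2. Col1a1a (deposited as col1a1) had -1.01 and -3.31 at 24 hpf, -1.51 and -1.62 at 30 hpf, then 0.97, 0.56 and 0.72 at 48 hpf, with an adjusted p of 0.0611. The 2 probes of col1a2 gave 0.29, 0.42 and 1.15 (adjusted p 0.129) and 0.76, 0.88 and 1.79 (adjusted p 0.0468) at 48 hpf. The 3 probes were above 0 on every 48 hpf array, with a median of 0.75, and 1 passed. Of the 14 probes of the matrix list within the repeat limit, 7 were above 0 on all 3 arrays and 0 below, and 2 passed higher and 0 lower, with a median of 0.27. Egfl6, a matrix protein of the EGF-repeat family, was at -0.68, 0.15 and -0.38.

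Slc4a1a (deposited as slc4a1), the anion exchanger of the red cell membrane, was the only gene of the red blood cell list among the members. Globins had been left out by symbol. Slc4a1a had 2 member probes. One of these gave -3.76, -2.54, -1.06 and -1.39 on the 4 early arrays, and the other -2.19, -2.79, -1.90 and -1.23. At 48 hpf they gave 0.64, 0.79 and 1.74, and 0.24, 1.26 and 1.18, above 0 on every array, with adjusted p of 0.0555 and 0.0749. Another slc4a1 probe, low on the same 4 arrays but outside the repeat limit, gave 1.03, 1.04 and 1.76 at 48 hpf. Of the 14 probes of the red blood cell list within the repeat limit, 3 were above 0 on all 3 arrays and 3 below, and 0 passed in either direction, with a median of 0.01.

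The liver-made blood proteins, plg (plasminogen) and f2 (prothrombin), had small positive ratios at 48 hpf, with means of 0.40 ± 0.31 and 0.22 ± 0.17.

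Signalling genes lay on both sides of 0 at 48 hpf. Tnk2b (deposited as LOC559119), a non-receptor tyrosine kinase, had -1.09 and -1.55 at 24 hpf, -1.66 and -1.61 at 30 hpf, then 1.54, 1.95 and 2.21 at 48 hpf, which is 3.74-fold higher with an adjusted p of 0.0104. Spry1, a feedback inhibitor of receptor tyrosine kinase signalling such as that of FGF, had 0.75, 1.32 and 1.59 at 48 hpf, with a mean of 1.22 ± 0.43 and an adjusted p of 0.0322. Mdkb, a midkine growth factor and the only member that the study names on these arrays, had -1.63 and -2.17 at 24 hpf and -0.59 and -0.60 at 30 hpf, so that its 30 hpf values lay just inside the limit. At 48 hpf it was at -0.03, -1.07 and -0.23, below 0 on all 3 arrays with an adjusted p of 0.271. The list of growth factors, receptors and signal transduction had 7 members with a median of -0.23, of which 2 were above 0 on all 3 arrays, 2 below (mdkb and arf1, a gene of Golgi traffic), and spry1 alone passed. The 64 probes of this list within the repeat limit had a median of -0.11, with 8 above 0 on all 3 arrays, 20 below, 3 passed higher and 3 lower. C1qtnf9 (deposited as zgc:175268), a secreted protein of the C1q and TNF-related family, was outside the list and gave 1.10, 1.58 and 2.01 (adjusted p 0.0197). Gadd45gb.1 (deposited as zgc:85869) and the gadd45 gamma-like LOC797032, stress and growth arrest genes whose probes lie at chr21:11686886-11686945 and chr21:11691210-11691269, had 48 hpf values of -0.71, 0.85 and 0.41, and -0.21, 0.82 and 0.64, lowest on array 1 in both.

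Among pumps and channels, atp2b1b, a calcium pump of the plasma membrane, passed with 1.06, 1.70 and 1.70 at 48 hpf (mean 1.49 ± 0.37, adjusted p 0.0188). The list held 7 member probes of 5 genes, since slc4a1a and atp2a1 have 2 probes each, with a median of 0.91 and 6 probes above 0 on all 3 arrays. Of the 28 probes of this list within the repeat limit, 12 were above 0 on all 3 arrays and 4 below, and 4 passed higher and 0 lower, with a median of 0.05. Its highest mean, 3.11 ± 4.07, belonged to atp6v0cb (deposited as zgc:77708), a subunit of the vacuolar proton pump, with 7.77, 0.23 and 1.34. The value of 7.77 was shared by 22 probes of that array, and the adjusted p was 0.156.

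**Figure D5:**
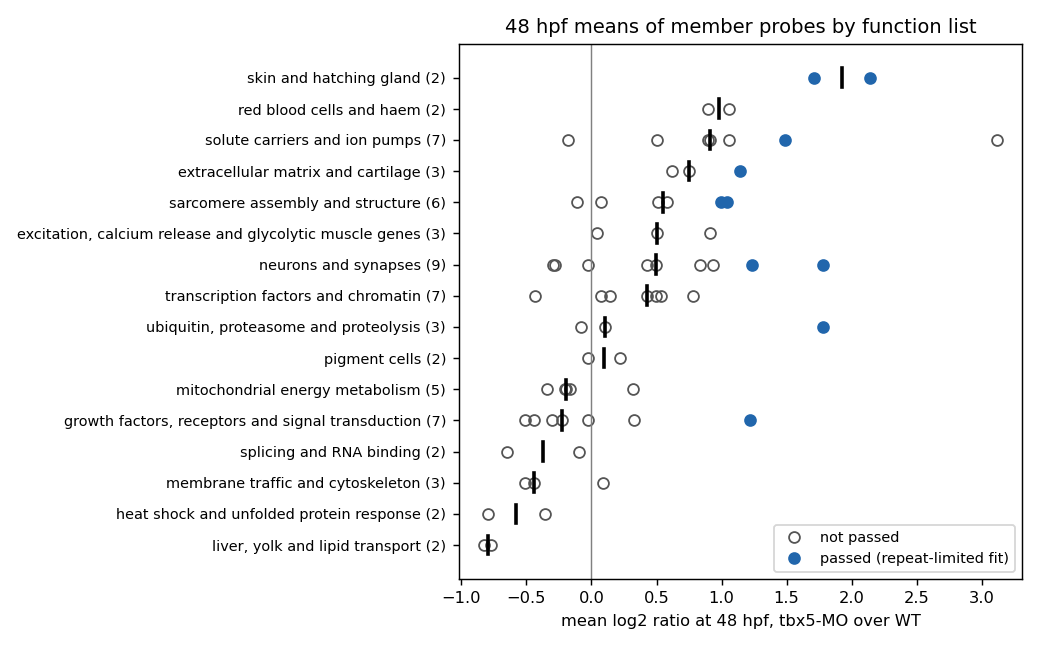
Mean log2 ratio at 48 hpf (horizontal axis) of the member probes in each function list with at least 2 of them (vertical axis, number of probes in brackets), with black bars at the list medians. Filled points passed in the repeat-limited fit, among them both keratins of the skin list, and no filled point lies below 0. Rfc5, alone in its list, and adka, in no list, passed lower and are not drawn. Lists go by the start of the symbol, so that the row of liver genes holds apobec2a beside fabp3.

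Genes for mitochondrial energy production had 48 hpf means between -0.34 and 0.32. Ndufb11 (deposited as si:dkey-6n6.4), ndufa10 and ndufa8 encode subunits of respiratory complex I, uqcrfs1 the Rieske protein of complex III, and hadh an enzyme of fatty acid oxidation. Their 48 hpf means were -0.16 ± 0.61, -0.34 ± 0.09, -0.19 ± 0.04, 0.32 ± 0.30 and -0.21 ± 0.33, in that order. Ndufa10 and ndufa8 were below 0 on all 3 arrays, at -0.36, -0.24 and -0.41, and at -0.18, -0.16 and -0.24, and none of the 5 passed. A 48 hpf value of ndufa10 was shared by 16 probes of its array. The 53 probes of this list within the repeat limit had a median of -0.10, with 2 passed higher and 0 lower. The glycolytic aldolase aldoab was at -0.08, 0.07 and 0.35.

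A few members were below WT at 48 hpf as well. Adka, adenosine kinase, had -0.93 and -6.25 at 24 hpf, -0.77 and -1.63 at 30 hpf, then -1.0, -0.81 and -0.84 at 48 hpf, 1.84-fold lower with an adjusted p of 0.0406. Rfc5, a subunit of the clamp loader of DNA replication and the only member of the cell cycle list, had -0.84, -1.20, -0.69 and -0.74, then -1.23, -0.50 and -1.59 at 48 hpf, 2.16-fold lower with an adjusted p of 0.0476. Of the 38 probes of the cell cycle list within the repeat limit, 1 passed higher and 8 lower, with a median of -0.53. These 2 genes and a probe without a symbol (-2.77, -1.02 and -1.32) are the 3 members that passed lower.

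Several more named members were below 0 on all 3 arrays without passing. Fabp3, the fatty acid-binding protein of muscle and heart, was at -0.70, -0.76 and -0.85, with little spread and an adjusted p of 0.0513. Hagh, of the glyoxalase system, gave -0.84, -0.54 and -1.14, and fahd2a (deposited as zgc:85683) gave -1.12, -0.46 and -0.98. Apobec2a (deposited as zgc:110762), a muscle member of the cytidine deaminase family, was at -1.30, -0.51 and -0.67, and the splicing factors sf3a1 and ppih, a cyclophilin of the spliceosome, had means of -0.65 ± 0.26 and -0.79 ± 0.49. These 6 genes with adka, rfc5 and zgc:101025 (-0.67, -0.42 and -0.91) are the 9 members with a symbol that were below 0 on all 3 arrays with a mean at least 1.5-fold lower. Closer to 0, hsp90b1, a chaperone of the endoplasmic reticulum, was at -0.17, -0.39 and -0.51. Arf1, a GTPase of Golgi traffic, was at -0.35, -0.53 and -0.66.

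Genes of general cell functions were found on both sides. Rnf144aa, a ubiquitin ligase of the RING family, had -1.01, -3.06, -2.21 and -1.44 early and 1.58, 1.81 and 1.95 at 48 hpf, with an adjusted p of 0.0102, while the proteasome subunits psmd7 and psmb4 had means of -0.08 ± 0.25 and 0.10 ± 0.56. Top1a (deposited as top1l), a DNA topoisomerase, gave 1.30, 1.41 and 2.79 (adjusted p 0.0284), and u2surp (deposited as LOC567461), a protein associated with the spliceosomal U2 particle, gave 1.04, 1.53 and 2.94 (adjusted p 0.0345). In both, array 3 was well above the others. Kpnb1, the nuclear import receptor importin beta, had 0.80, 1.23 and 1.72 (adjusted p 0.0322), and nme2b.2 (deposited as ndpkz2), a nucleoside diphosphate kinase, had 1.11, 1.05 and 1.38 (adjusted p 0.023). Si:dkey-266f7.4 (deposited as DKEY-266F7.4) and wu:fa04a07 passed at 1.42, 1.49 and 2.07, and at 1.06, 0.61 and 0.97. With the genes given above, these are the 18 symbols of the 19 symbol-bearing probes that passed higher.

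Among the remaining low members by early mean, bola1 (deposited as zgc:101119), a mitochondrial protein of the BolA family, had -0.73, -2.27, -0.76 and -4.41, with -0.20, -0.64 and 0.15 at 48 hpf. The pigment list held gch2, an enzyme of pteridine pigment synthesis, and atic, an enzyme of purine synthesis, with 48 hpf means of 0.22 ± 0.20 and -0.02 ± 0.38. Of the 104 symbols, 59 fell in at least 1 of the 25 function lists, and 45 in none, and 22 lists held a member. The lists match the start of a symbol, and some matches do not have the function in the list's name. Mipepb, a mitochondrial peptidase, is the only member of the lens list, apobec2a falls in the liver list, coro1cb in the vessel and blood precursor list, and arf1 in the signalling list. The lists of muscle regulators, retina and photoreceptors, and heart held none. Of their 3, 18 and 22 named probes, only 0, 3 and 3 met the repeat limit, and contractile genes were left out by symbol. Whether genes of these tissues were lower thus cannot be read from these counts. Fabp3, of muscle and heart, stood in the liver list.

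Further members, chosen after their values were seen and forming no list, did not pass. Prdx6 and glrx, which reduce peroxides and disulfides, were at -0.35, -0.47 and 0.99, and at -0.58, -0.08 and -0.40, at 48 hpf. Cyb5a, the electron carrier cytochrome b5, was at -0.51, -0.14 and -0.94. The mitochondrial enzymes got2a, an aspartate aminotransferase, hsd17b10, a dehydrogenase, and aldh2.1 (deposited as aldh2a), an aldehyde dehydrogenase, had means of 0.70 ± 0.59, -0.22 ± 0.35 and -0.11 ± 0.37. For 9 members, among them prdx6, got2a, aldh2.1 and atp6v0cb, at least 1 value at 48 hpf was shared by more than 10 probes of its array.

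Tln1, talin, which links integrins to actin, was at 0.08, 0.21 and -0.03, and lims2 (deposited as zgc:112257), of the PINCH family of integrin adaptors, was at -0.20, 0.02 and -0.19. Coro1cb (deposited as wu:fb30e01), a coronin that binds actin, was above 0 on all 3 arrays at 0.15, 0.31 and 0.62, with an adjusted p of 0.254. Rbbp4 (deposited as rbb4), a histone-binding protein, had -0.59, -0.99 and 1.44, on both sides of 0, the methyltransferase nsd2 (deposited as whsc1) had -0.40, 0.05 and -0.24, and the RNA-binding serbp1b (deposited as wu:fc66f06) had 0.37, 0.73 and 1.00, with an adjusted p of 0.0801. A position was deposited for 130 of the 145 probes, which fell on 24 numbered chromosomes with 2 to 11 probes each, most on chromosome 19. The share of all probes on each chromosome was not counted. Whether any chromosome held more members than its share thus cannot be read from these counts.

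The 34 probes without a symbol had a median of 0.24 at 48 hpf, beside 0.09 for the 111 with one. Of the 34, 18 were above 0 on all 3 arrays, 5 below and 11 on both sides, and 8 passed higher and 1 lower. The lowest of them early gave -2.16, -6.35, -2.51 and -2.12, and then 1.41, 1.68 and 1.96. For 2 of them, the deposited description names skeletal alpha-actin, a gene that the choice by symbol was meant to leave out. These gave 1.84, 0.72 and 1.92, and 1.91, 1.32 and 2.60, at 48 hpf, and both passed (adjusted p 0.032 and 0.017). Without them and the 2 myl1 probes, 141 members had a median of 0.13 at 48 hpf, with 61 above 0 on all 3 arrays and 27 below.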

How the data were processed

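The authors hybridised Cy5-labelled tbx5-MO and Cy3-labelled WT cDNA to 7 arrays, processed the scans in GeneSpring and deposited log2 ratios per probe and array, beside, for each stage, a named list of the probes at least 1.5-fold lower. The sources used here do not give the normalization steps, filters or genome build, and without signals the number of arrays limits the precision. A list probe was named where its values matched 1 row of the value table alone (3328 of 3372 probes at 24 hpf, 2913 of 2951 at 30 hpf). By Entrez number, 99 of 104 symbols matched RefSeq's gene table (GRCz12tu), which updated 41.

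With limma 3.58.1 in R 4.3.3, 1 mean for each stage was estimated from the 7 arrays together. The 48 hpf mean was tested against 0 with Benjamini-Hochberg adjustment over all probes and a threshold of 0.05. A run on simulated data came first. Its noise was normal and independent between probes, without the repeated values of this table. It thus does not show how the test performs on these data. Members, the 25 function lists and the rules were chosen with earlier results of these data known. The rule for named genes took the 12 lowest early probes, up to 10 of the largest 1.5-fold changes each way at 48 hpf, up to 4 members per list, mdkb, genes with several probes and those next to the limit. Genes named beyond it were chosen after their values were seen. Lists were planned on deposited symbols and searched on current ones too. Alternatives were other thresholds and repeat limits, centring, scaling, robust moderation, blocks, 1 value per gene and each array left out. Deviations of same-numbered arrays correlated between -0.04 and 0.02. Sequences were not analysed here.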

Additional observations from a re-analysis of the deposited data

Results flagged for a closer look

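For 63 of the 145 members, every array of 24 and 30 hpf was below 0 and every array of 48 hpf above 0, so that the stages lay on opposite sides. The early side was set by the choice of members, and the difference between the stages was not tested. Every array of 48 hpf was above 0 for 43.4% of the members. The same share was 16.8% of all probes and 17.1% of the probes within the repeat limit.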

How the results depend on the processing

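The count of members passing at 48 hpf, 0 in each direction over all probes, was also 0 with the 48 hpf arrays alone, median centring, scaling to 1 median absolute deviation, robust moderation, an adjusted p of 0.10 and each array left out. It rose where fewer probes entered the fit. Over the probes within the repeat limit at 24 and 30 hpf it was 8 higher and 0 lower with all 7 arrays, and 27 higher and 3 lower with the 48 hpf arrays alone, or 0 to 14 higher and 0 to 1 lower without 1 of these arrays, a check added after seeing the data. Also added afterwards, the limit on all 7 arrays left 136 members, with 10 higher and 0 lower (0.576% and 0.806% of the 6950 probes tested), or 32 higher and 7 lower with the 48 hpf arrays alone (3.65% and 9.88%). The replicate block gave 0 in each direction. The labels link same-numbered arrays by the number alone, and do not state whether they share anything else. The array series as a block gave 1 higher and 0 lower, and moved the median of the members to 0.54. The share of all probes that passed in that fit, and their median, are not given here. This block turned the sign of adka (to 1.78), hsp90b1 (0.80), ndufa10 (0.59), arf1 (0.65) and ndufa8 (0.028). It also turned the lrrn1 probe that gave -0.92, -0.18 and -0.44 at 48 hpf (to 1.78). In that fit the 48 hpf mean is shifted by the gap between the 24 hpf arrays. Named members with 48 hpf values on both sides of 0 were given no direction, a rule set after seeing the data, so a turn in the sign of their mean is not listed. With each 48 hpf array left out, members above 0 on the other 2 numbered 65 to 85, members below 0 28 to 42, and the median was 0.11 to 0.29. The share of all probes on 1 side of 0 on 2 arrays was not counted, so these counts have no background here. A limit of -1 left 31 members, 17 above, 4 below and a median of 0.51. Values found once left 55 (29 above, 8 below), no limit on repeats gave 321 (104 above, 45 below), and 1 value per symbol gave 41 above among 104. No background was counted for values found once or for 1 value per symbol. With 2 or 3 arrays a stage, differences of the size of the replicate spread were not detectable.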
